A study of Homo sapiens with 12 samples.

Results

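A set of 42 genes known as targets of the transcription factor NF-kB was followed in 2 oral squamous carcinoma cell lines with and without knockdown of the kinase TTK. The members were matched by gene symbol from a list of NF-kB-induced genes that leaves out secreted interleukins and chemokines. All 42 symbols were found among the 57167 distinct gene symbols of the count table, and 40 of them had enough counts to be tested. Poly(A) RNA of CAL-27 and SCC-15, established human lines whose labelled cell type is oral squamous cell carcinoma, was sequenced in 4 groups of 3 libraries. These were CAL-27 shTTK, CAL-27 shControl, SCC-15 shTTK and SCC-15 shControl, the shTTK groups being labelled TTK knockdown and the shControl groups WT. All 12 libraries are labelled untreated and batch 1. The labels do not settle whether the control cells carried a control hairpin, how many TTK hairpins or clones were used, or whether the numbered libraries were separate cultures, and a p-value here reflects no more than the scatter among these libraries, which could be technical.

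NF-kB dimers are held in the cytoplasm by inhibitor proteins until receptors of the tumour necrosis factor, interleukin and Toll-like families activate a kinase complex that marks the inhibitor for destruction. The freed dimers bind short kappaB sites in DNA and induce inhibitors of the pathway itself, survival proteins, adhesion molecules and receptors, and secreted proteins of the acute phase. Squamous carcinoma cells are known for NF-kB activity without an added stimulus. TTK is a kinase of the mitotic spindle checkpoint. The title of the series names NF-kB as a pathway of interest beside mTORC1, and the comparison asks how its target genes stood after TTK knockdown in each line.

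The stretches of promoter that follow show the kappaB consensus upstream of the RefSeq start of 8 of the 11 members with a match. They were read from RefSeq promoters (GRCh38.p14), of which 33 of the 42 members had one. Matches to the kappaB consensus were looked for on both strands in the 250 bases before the RefSeq start, and 11 of the 33 promoters held at least 1. The same window held a match in 6.02% of the promoters of 11162 tested genes and in 5.05% of all 27305 promoters. Among the NF-kB-induced cytokine and chemokine genes it was 12 of 22. A match is a description of letters and not a site bound in these cells. Each sequence runs 5′ to 3′ on the gene's strand, with the match in capitals. All 8 genes lie on the plus strand except SDC4, on the minus strand.

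TNFAIP3: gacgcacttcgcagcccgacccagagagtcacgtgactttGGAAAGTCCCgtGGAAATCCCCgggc
NFKBIZ: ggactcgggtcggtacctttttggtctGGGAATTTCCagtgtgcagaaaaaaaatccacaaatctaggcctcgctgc
BIRC3: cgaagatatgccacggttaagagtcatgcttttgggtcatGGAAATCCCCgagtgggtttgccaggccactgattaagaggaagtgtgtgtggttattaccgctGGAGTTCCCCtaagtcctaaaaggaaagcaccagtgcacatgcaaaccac
CFLAR: gtttcaactgcgcggggggcGGGGAATTCC
LCN2: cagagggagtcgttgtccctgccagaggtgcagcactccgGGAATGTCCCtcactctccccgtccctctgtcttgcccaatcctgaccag
PTX3: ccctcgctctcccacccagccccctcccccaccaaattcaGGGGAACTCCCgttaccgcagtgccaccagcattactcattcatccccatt
ELF3: ggagcccagtctaaaggccaGGAAATCCCC
SDC4: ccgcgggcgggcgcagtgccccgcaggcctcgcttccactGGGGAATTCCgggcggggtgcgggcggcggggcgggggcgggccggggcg

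The TNFAIP3 stretch (chr6:137867152-137867217) holds 2 matches that begin 67 and 55 bases before the start. In NFKBIZ (chr3:101827740-101827816) a single match begins 223 bases before it. BIRC3 (chr11:102317245-102317398) has 2 matches further apart, beginning 199 and 135 bases before the start. The match of CFLAR (chr2:201118599-201118628) begins 97 bases before the start, that of LCN2 (chr9:128149238-128149327) 175, that of ELF3 (chr1:202010479-202010508) 88 and that of SDC4 (chr20:45348472-45348561) 97. PTX3 (chr3:157436713-157436803) shows 2 overlapping matches, which begin 97 and 96 bases before the start and together fill 1 run of capitals. Distances are from the RefSeq start, and GENCODE 29 places some starts further upstream. By GENCODE 29 both matches of TNFAIP3 and those of CFLAR and ELF3 touch an annotated exon, and the match of LCN2 lies inside the gene but touches no exon. Those of NFKBIZ, BIRC3, PTX3 and SDC4 lie upstream of the gene. The other members with a match were VCAM1, TNFRSF9 and MAP3K8.

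Gene positions are those of GENCODE 29 on hg38. Total counts lay between 16176655 and 18484112 per library, and 16946 genes were tested. TTK stood at 35.6, 32.5 and 33.5 CPM (TMM-scaled counts relative to library size) in CAL-27 shTTK libraries, against 46.4, 48.4 and 53.4 CPM in CAL-27 shControl, a log2 fold change of -0.54 ± 0.066 (SE, edgeR adjusted p = 4.04e-10). In SCC-15 it stood at 26.9, 29.2 and 34.3 CPM in shTTK libraries, against 67.5, 69.4 and 73.0 CPM in shControl (-1.21 ± 0.065, edgeR adjusted p = 1.92e-25). The groups did not overlap in either line, and the fold was smaller in CAL-27. Libraries numbered 1 stood apart in SCC-15. The mean chi-square per gene between replicate counts was 5.62 and 5.96 for control library 1 against the other two, which differed by 1.98, and 3.07 and 3.78 for shTTK library 1, with 1.95 between the other two. In CAL-27, control library 2 gave the highest level of its group for 28 of the 39 members at 1 CPM or more. The labelled cell type was checked with 10 squamous epithelial markers, none at 0, whose levels summed to 6203 to 6253 CPM in CAL-27 shTTK, 4105 to 4370 in CAL-27 shControl, 8803 to 8815 in SCC-15 shTTK and 9207 to 9547 in SCC-15 shControl. Markers of leukocytes summed to 22.0 to 22.8 and 21.1 to 25.5 CPM in CAL-27 shTTK and shControl, and to 407 to 416 and 264 to 275 CPM in SCC-15 shTTK and shControl, where LCP1 made up nearly all (412 and 270.4 CPM). PTPRC was at 0 in CAL-27 and CD3E in SCC-15. Fibroblast markers summed to 41.2 to 42.2 and 31.9 to 37.6 CPM in CAL-27 shTTK and shControl and to 20.6 to 22.7 and 21.1 to 23.0 CPM in SCC-15 shTTK and shControl, with DCN at 0 in CAL-27 and COL1A2 at 0 in SCC-15. Endothelial markers summed to 72.4 to 74.4 CPM in CAL-27 shTTK and 102 to 110 CPM in CAL-27 shControl, nearly all of it CDH5 (71.5 and 104 CPM), and to at most 2.25 CPM in SCC-15, with KDR at 0 throughout. The part of these markers in the results was not tested.

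With TTK knockdown in CAL-27, every called survival gene, adaptor and receptor was lower, the secreted PTX3 and the receptor IL7R fell most, and TNFAIP2, NFKBIZ, ELF3, BMP2 and LCN2 rose. Of the 40 members tested, 5 rose, 16 fell and 19 were not called (edgeR, adjusted p under 0.05 over all genes), a called share of 52.5%. Over all tested genes 27.3% were called, 11.6% higher and 15.7% lower. Most changes were small: 15 of the 21 called members changed by less than 0.5 on the log2 scale and 2 by at least 1. Over all tested genes, 425 of the 4618 called in CAL-27 changed by at least 1. With limma-voom, and with each line fitted alone, 8 members were called higher in place of 5. The median log2 fold change of the members was -0.12, against -0.01 over all genes. In bulk RNA, a smaller share of cells that express a gene and less RNA per cell cannot be told apart. The squamous marker sum was higher in every shTTK library of this line than in every control library. Its 10 markers did not move together: 6 were called higher and 2 lower. KRT5 stood at 1924 CPM in CAL-27 shTTK, against 886 CPM in CAL-27 shControl. The 2 lower were EPCAM (-0.28 ± 0.033) and CDH1 (-0.11 ± 0.032). The part of these markers in the changes was not tested.

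In SCC-15 with TTK knockdown, 5 of the 10 members grouped as feedback regulators rose, and CD40, SAA1, ICAM1, LCN2 and BDKRB1 fell. CD40 and SAA1 had few counts in SCC-15. Of the 40 members tested, 10 rose, 14 fell and 16 were not called, a called share of 60.0%, against 27.7% over all genes (13.4% higher and 14.3% lower). Of the 24 called members, 12 changed by at least 0.5 on the log2 scale and 5 by at least 1. Over all tested genes, 398 of the 4694 called in SCC-15 changed by at least 1. The median log2 fold change was -0.01, or 0.02 without TLR2, PTX3 and SAA2, which had 3 counts or fewer in a group, and 0.00 over all genes. Without both SCC-15 libraries numbered 1, the count was 10 higher and 10 lower. At least 1 alternative ended 12 of the 24 calls, among them those of BCL3, NFKBID, SAA1 and BDKRB1.

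Members stood at higher levels than most genes in CAL-27, and genes at higher levels were called more often. The median member level was 66.3 CPM in CAL-27 shTTK and 67.7 CPM in CAL-27 shControl, and 15.8 CPM in SCC-15 shTTK and 20.3 CPM in SCC-15 shControl, while all tested genes had medians of 14.7 to 15.3 CPM. Among genes with a mean of at least 10 CPM in CAL-27, 39.2% were called, 14.9% higher and 24.2% lower. Of the 37 members at that level, 5 (13.5%) rose and 16 (43.2%) fell. In SCC-15 the share was 40.7% over all genes of that level, 20.4% higher and 20.3% lower, and of 25 members 9 (36.0%) rose and 6 (24.0%) fell.

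**Figure D1:**
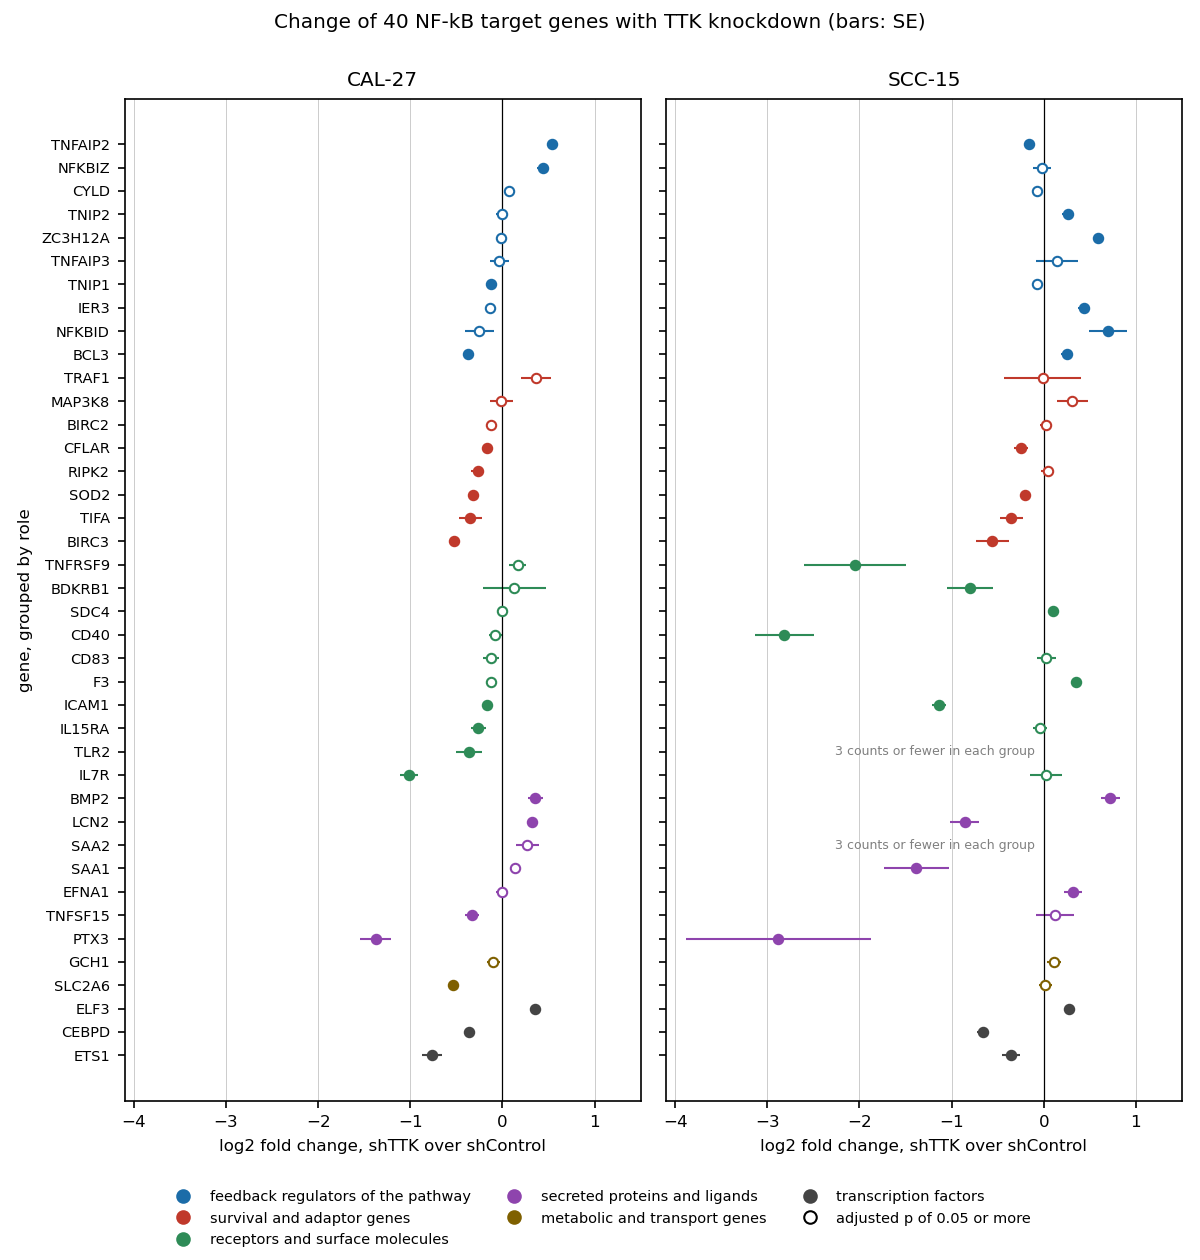
Log2 fold change of each tested member, shTTK over shControl, in CAL-27 (left) and SCC-15 (right), with 1 SE; genes are coloured and grouped by role, and open circles were not called. TLR2 and SAA2, at 3 counts or fewer, are not drawn for SCC-15. Called changes in CAL-27 lie mostly within 0.5 of 0 on the log2 scale, while CD40, TNFRSF9 and PTX3 fall furthest in SCC-15, where their levels are low.

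The group named feedback regulators holds inhibitors that NF-kB induces against itself, nuclear proteins that modulate NF-kB at promoters, and other induced proteins. In CAL-27, 2 of the 10 rose and 2 fell, where 11.6% of all tested genes rose and 15.7% fell. In SCC-15 5 rose and 1 fell, where 13.4% of all tested genes rose and 14.3% fell. TNFAIP3, the ubiquitin-editing enzyme that shuts off signalling from tumour necrosis factor receptors, was not called in either line. It measured 928, 788 and 843 CPM in CAL-27 shTTK, against 788, 1025 and 808 CPM in CAL-27 shControl (-0.03 ± 0.1, edgeR adjusted p = 0.865), where control library 2 was the highest and the groups overlapped. In SCC-15 it measured 13.1, 13.9 and 15.9 CPM in shTTK, against 12.4, 14.1 and 12.5 CPM in shControl, also overlapping (0.14 ± 0.23, edgeR adjusted p = 0.732). Its ubiquitin-cleaving counterpart CYLD and the TNFAIP3-binding protein TNIP1 belong to the same circuit, and CYLD stood at 0.07 ± 0.053 in CAL-27 and -0.07 ± 0.059 in SCC-15, neither called. TNIP1 fell slightly in CAL-27 to 367 ± 9.26 CPM in shTTK, against 398 ± 2.09 CPM in shControl (-0.12 ± 0.033, edgeR adjusted p = 0.00306), and was not called in SCC-15 (-0.07 ± 0.038). TNIP2, a second protein that binds TNFAIP3, was not called in CAL-27 (-0.01 ± 0.068) and rose in SCC-15 to 40.5 ± 0.462 CPM in shTTK, against 33.8 ± 2.10 CPM in shControl (0.26 ± 0.065, edgeR adjusted p = 0.0011).

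The nuclear members of the inhibitor family, which modulate NF-kB at promoters, moved in different directions. NFKBIZ, the atypical inhibitor that switches on secondary response genes, measured 381, 333 and 346 CPM in CAL-27 shTTK, against 243, 287 and 250.4 CPM in CAL-27 shControl, and every shTTK library was higher (0.44 ± 0.064, edgeR adjusted p = 2.49e-04). In SCC-15 it stayed uncalled at 33.8 ± 0.597 CPM in shTTK and 34.2 ± 2.24 CPM in shControl (-0.02 ± 0.097). BCL3, a partner of NF-kB homodimers, fell in CAL-27 to 74.3 ± 1.81 CPM in shTTK, against 96.4 ± 4.12 CPM in shControl (-0.38 ± 0.052, edgeR adjusted p = 1.26e-08). It rose in SCC-15 to 34.1, 37.4 and 29.5 CPM in shTTK, against 28.2, 28.3 and 28.4 CPM in shControl (0.25 ± 0.066, edgeR adjusted p = 0.00192), a call that was lost without SCC-15 shTTK library 2 (0.18, edgeR adjusted p = 0.0647). NFKBID, another nuclear inhibitor (chromosome 19, 35887653 to 35902303, minus strand) measured 3.03, 3.28 and 3.97 CPM in SCC-15 shTTK, against 1.83, 1.89 and 2.64 CPM in SCC-15 shControl. Its shTTK libraries were all higher, at low levels (0.70 ± 0.21, edgeR adjusted p = 0.00711), and the call was lost without SCC-15 shTTK library 3 (0.58, edgeR adjusted p = 0.0604). In CAL-27 it was not called, at 7.37 ± 1.44 CPM in shTTK and 8.73 ± 1.19 CPM in shControl.

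ZC3H12A (chromosome 1, 37474552 to 37484379, plus strand), an RNase that degrades inflammatory messenger RNAs, rose in SCC-15. It measured 106, 94.5 and 96.7 CPM in SCC-15 shTTK, against 67.2, 62.1 and 68.0 CPM in SCC-15 shControl, without overlap (0.59 ± 0.043, edgeR adjusted p = 3.40e-19). In CAL-27 the groups overlapped at 331, 312 and 332 CPM in shTTK, against 320.0, 339 and 326 CPM in shControl (-0.01 ± 0.035, edgeR adjusted p = 0.825). TNFAIP2 (chromosome 14, 103123442 to 103137439, plus strand), a tumour necrosis factor-induced protein of membrane protrusions, was called in both lines in opposite directions. It measured 866, 891 and 863 CPM in CAL-27 shTTK, against 585, 620.3 and 595 CPM in CAL-27 shControl (0.54 ± 0.031, edgeR adjusted p = 1.18e-25), and 163, 159 and 154 CPM in SCC-15 shTTK, against 170.1, 183 and 179 CPM in SCC-15 shControl (-0.16 ± 0.034, edgeR adjusted p = 1.19e-04). The groups did not overlap in either line. IER3, an early stress-response gene, was the most abundant member per length in all 4 groups. It rose in SCC-15 to 528 ± 33.5 CPM in shTTK, against 389.7 ± 3.12 CPM in shControl (0.44 ± 0.061, edgeR adjusted p = 2.90e-04), and was not called in CAL-27 (-0.13 ± 0.06, edgeR adjusted p = 0.141). It was called lower in CAL-27 with every gene that had a read (-0.11, adjusted p = 0.00656) and without CAL-27 shControl library 1 (-0.19, adjusted p = 0.00405).

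Survival and adaptor genes restrain cell death downstream of death receptors or relay receptor signals to the kinase complex. None of the 8 rose in either line. In CAL-27 5 fell, where 15.7% of all genes did, and in SCC-15 4 fell, where 14.3% of all genes did. BIRC3, CFLAR, SOD2 and TIFA were called lower in both. BIRC3 (chromosome 11, 102317450 to 102339403, plus strand), an inhibitor of apoptosis and ubiquitin ligase, measured 77.9, 78.5 and 80.3 CPM in CAL-27 shTTK, against 108, 122 and 111 CPM in CAL-27 shControl (-0.53 ± 0.051, edgeR adjusted p = 4.55e-14). In SCC-15, where its level was far lower, it measured 1.81, 2.07 and 2.18 CPM in shTTK, against 2.80, 2.75 and 3.40 CPM in shControl (-0.56 ± 0.18, edgeR adjusted p = 0.0117). No shTTK library overlapped a control library in either line. The SCC-15 call was lost without SCC-15 shTTK library 1 or SCC-15 shControl library 3 (-0.48 and -0.45, edgeR adjusted p = 0.0633 and 0.0943), with limma-voom (-0.55, adjusted p = 0.0878), with SCC-15 fitted alone (-0.56, adjusted p = 0.0576) and without both libraries numbered 1 (-0.53, adjusted p = 0.0665). Its paralog BIRC2, which lies 7.8 kb from it on chromosome 11, was not called in CAL-27 (-0.13 ± 0.054, edgeR adjusted p = 0.0782) or SCC-15 (0.03 ± 0.065, edgeR adjusted p = 0.833). Without CAL-27 shControl library 1 it was called lower in CAL-27 (-0.18, edgeR adjusted p = 0.0235).

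SOD2, the mitochondrial manganese superoxide dismutase, measured 1044, 1063 and 1062 CPM in CAL-27 shTTK, against 1297, 1349 and 1304 CPM in CAL-27 shControl (-0.32 ± 0.031, edgeR adjusted p = 1.19e-13). In SCC-15 it measured 61.1, 67.7 and 67.5 CPM in shTTK, against 74.4, 80.2 and 71.2 CPM in shControl (-0.20 ± 0.04, edgeR adjusted p = 4.69e-05). Both calls held under every alternative tried. CFLAR, which blocks caspase activation at death receptors, fell to 74.96 ± 3.18 CPM in CAL-27 shTTK, against 84.2 ± 1.89 CPM in CAL-27 shControl (-0.17 ± 0.052, edgeR adjusted p = 0.0101), and to 17.2 ± 0.520 CPM in SCC-15 shTTK, against 20.4 ± 1.51 CPM in SCC-15 shControl (-0.25 ± 0.075, edgeR adjusted p = 0.00775). Its CAL-27 call was lost without CAL-27 shTTK library 1 or CAL-27 shControl library 2 (-0.12 and -0.13, edgeR adjusted p = 0.142 and 0.103) and its SCC-15 call without SCC-15 shControl library 2 (-0.18, edgeR adjusted p = 0.112). TIFA, an adaptor that assembles TRAF proteins, fell by similar fitted amounts in CAL-27 (-0.35 ± 0.12, edgeR adjusted p = 0.0231) and SCC-15 (-0.35 ± 0.12, edgeR adjusted p = 0.0252). Neither call was stable. In CAL-27 it was lost without CAL-27 shTTK library 1, CAL-27 shTTK library 3, CAL-27 shControl library 1 or CAL-27 shControl library 3 (-0.35 to -0.29, edgeR adjusted p = 0.0548 to 0.122) and in SCC-15 without SCC-15 shTTK library 2, SCC-15 shControl library 1 or SCC-15 shControl library 2 (-0.34 to -0.23, edgeR adjusted p = 0.0666 to 0.234). It was also lost in both lines with every gene that had a read in the fit (-0.33, adjusted p = 0.0629 in CAL-27 and -0.34, adjusted p = 0.0633 in SCC-15), and in SCC-15 without both libraries numbered 1 (-0.36, adjusted p = 0.0884).

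RIPK2, the kinase that signals from the NOD receptors, fell in CAL-27 to 32.6 ± 2.13 CPM in shTTK, against 39.3 ± 0.334 CPM in shControl (-0.27 ± 0.068, edgeR adjusted p = 0.0014), and was not called in SCC-15 (0.04 ± 0.069, edgeR adjusted p = 0.728). MAP3K8, a kinase upstream of MEK, was not called in CAL-27 (-0.01 ± 0.13) or SCC-15 (0.31 ± 0.17). Its CAL-27 control values of 11.6, 18.3 and 11.3 CPM were the most variable in that group among the 39 members at 1 CPM or more, with a coefficient of variation of 28.7%. TRAF1, a receptor adaptor, measured 8.72 ± 0.598 CPM in CAL-27 shTTK and 6.76 ± 1.15 CPM in CAL-27 shControl (0.36 ± 0.16, edgeR adjusted p = 0.0882) and stood under 1 CPM in every SCC-15 library. It was called higher in CAL-27 with limma-voom (0.37, adjusted p = 0.0376) and with CAL-27 fitted alone (0.38, adjusted p = 0.0314).

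**Figure D2:**
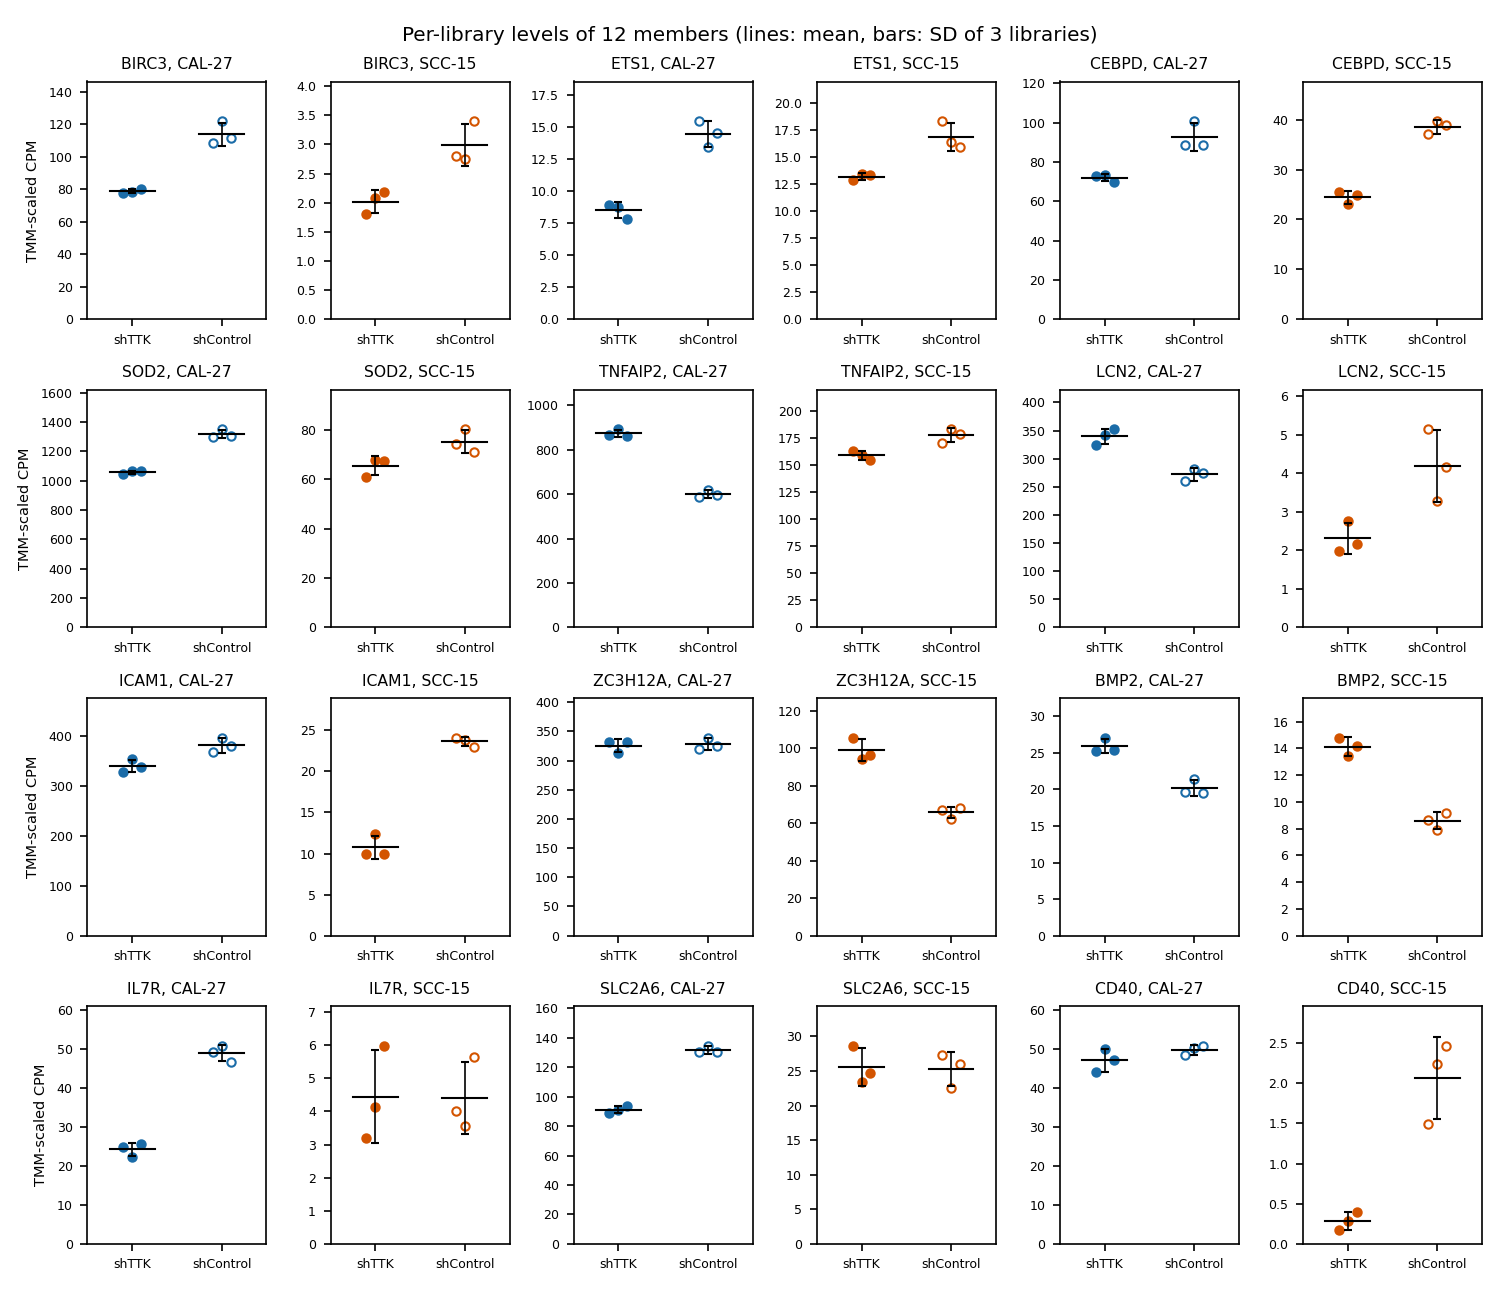
TMM-scaled CPM of 12 members in each library, shTTK (filled) left of shControl (open), for CAL-27 (blue) and SCC-15 (orange); lines are means and bars are the SD of 3 libraries, and each panel has its own axis from 0. BIRC3, CEBPD, SOD2 and ETS1 lie lower in every shTTK library of both lines, TNFAIP2 and LCN2 move in opposite directions in the lines, and CD40 in SCC-15 lies between 0.175 and 0.391 CPM in shTTK libraries, against 1.49 to 2.46 CPM in shControl.

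Receptors and surface molecules hold targets through which epithelial cells meet immune cells, bacteria and clotting factors. Of the 10 tested, none rose and 4 fell in CAL-27, where 11.6% of all tested genes rose and 15.7% fell. In SCC-15 2 rose and 4 fell, where 13.4% of all tested genes rose and 14.3% fell. ICAM1 (chromosome 19, 10270835 to 10286615, plus strand), the adhesion ligand of leukocyte integrins, measured 9.97, 12.4 and 9.95 CPM in SCC-15 shTTK, against 24.1, 23.9 and 23.0 CPM in SCC-15 shControl (-1.14 ± 0.072, edgeR adjusted p = 1.76e-22). In CAL-27 it measured 329, 354 and 338 CPM in shTTK, against 368, 397 and 380.1 CPM in shControl (-0.17 ± 0.035, edgeR adjusted p = 1.25e-04). Every shTTK library was lower in both lines, by a larger fold in SCC-15. VCAM1, the other adhesion molecule of the set, had 0 counts in all 12 libraries. CD40 (chromosome 20, 46118272 to 46129863, plus strand), a receptor of the tumour necrosis factor family that B cells and epithelia share, had 15 counts in SCC-15 shTTK in all, against 107 counts in SCC-15 shControl. That was 0.175, 0.288 and 0.391 CPM in shTTK, against 1.49, 2.24 and 2.46 CPM in shControl (-2.81 ± 0.32, edgeR adjusted p = 1.74e-11), without overlap. In CAL-27, at 44.1, 50.04 and 47.2 CPM in shTTK, against 48.4, 50.2 and 50.8 CPM in shControl, the groups overlapped and it was not called (-0.08 ± 0.069, edgeR adjusted p = 0.453).

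IL7R (chromosome 5, 35852695 to 35879603, plus strand), the receptor chain shared by interleukin 7 and thymic stromal lymphopoietin, fell in CAL-27. It measured 24.9, 22.3 and 25.5 CPM in CAL-27 shTTK, against 49.3, 50.8 and 46.6 CPM in CAL-27 shControl (-1.01 ± 0.095, edgeR adjusted p = 1.43e-10). In SCC-15 the groups overlapped, at 3.21, 4.15 and 5.98 CPM in shTTK, against 4, 3.56 and 5.63 CPM in shControl (0.02 ± 0.18, edgeR adjusted p = 0.955). IL15RA, the chain that presents interleukin 15, fell in CAL-27 (-0.26 ± 0.079, edgeR adjusted p = 0.00775), a call lost without CAL-27 shTTK library 3 (-0.21, edgeR adjusted p = 0.0847), and was not called in SCC-15 (-0.04 ± 0.079). TLR2, the receptor of bacterial lipoproteins, had 9.23 ± 0.339 CPM in CAL-27 shTTK, against 11.8 ± 0.964 CPM in CAL-27 shControl (-0.36 ± 0.14, edgeR adjusted p = 0.0478), and 0 counts in every SCC-15 library. Its CAL-27 call was lost without CAL-27 shTTK library 1, CAL-27 shTTK library 2, CAL-27 shTTK library 3, CAL-27 shControl library 1, CAL-27 shControl library 2, CAL-27 shControl library 3, SCC-15 shTTK library 1, SCC-15 shTTK library 2, SCC-15 shControl library 2 or SCC-15 shControl library 3 (-0.41 to -0.31, edgeR adjusted p = 0.0539 to 0.17), and with DESeq2 (-0.36, adjusted p = 0.0807), with every gene that had a read (-0.34, adjusted p = 0.12), with a filter of 1 CPM in 3 libraries (-0.35, adjusted p = 0.0538) and with the replicate number as a block (-0.36, adjusted p = 0.0506).

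BDKRB1 (chromosome 14, 96255824 to 96268967, plus strand), the inducible bradykinin receptor, measured 2.22, 2.59 and 1.62 CPM in SCC-15 shTTK, against 3.60, 3.67 and 3.93 CPM in SCC-15 shControl (-0.80 ± 0.25, edgeR adjusted p = 0.00897), and the call was lost without SCC-15 shTTK library 3 (-0.63, edgeR adjusted p = 0.0823). In CAL-27 its levels of 0.554, 1.24 and 1.17 CPM in shTTK and 1.09, 0.877 and 0.743 CPM in shControl overlapped (0.13 ± 0.34). TNFRSF9, a costimulatory receptor known from T cells, had 7 counts in SCC-15 shTTK and 30 counts in SCC-15 shControl (-2.05 ± 0.55, edgeR adjusted p = 0.00271). The groups overlapped. Without SCC-15 shTTK library 3 the value was -3.16, and without both libraries numbered 1 the call was lost (-1.49, adjusted p = 0.109). In CAL-27 it stood near 28.0 CPM in shTTK and 24.97 CPM in shControl and was not called, except without CAL-27 shTTK library 3 (0.28, edgeR adjusted p = 0.0467). F3, the tissue factor that starts coagulation, rose in SCC-15 to 597 ± 48.7 CPM in shTTK, against 468 ± 5.005 CPM in shControl (0.35 ± 0.052, edgeR adjusted p = 1.45e-04), and was not called in CAL-27 (-0.12 ± 0.052, edgeR adjusted p = 0.1). Every CAL-27 shTTK library was nevertheless below every CAL-27 shControl library. F3 was called lower in CAL-27 with DESeq2, with every gene that had a read, with the replicate block, with CAL-27 fitted alone, without both SCC-15 libraries numbered 1 and without SCC-15 shTTK library 1 or 3 (-0.13 to -0.10, adjusted p = 4.02e-04 to 0.0457). The heparan sulfate proteoglycan SDC4 rose slightly in SCC-15 (0.10 ± 0.034, edgeR adjusted p = 0.0165), a call lost without SCC-15 shTTK library 3 or SCC-15 shControl library 3 (0.08 and 0.09, edgeR adjusted p = 0.122 and 0.0915), and was not called in CAL-27 (-0.004 ± 0.031). CD83, a surface protein of activated antigen-presenting cells, was not called in CAL-27 (-0.12 ± 0.088) or SCC-15 (0.03 ± 0.1).

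Secreted proteins and ligands of the set belong to innate defence, the acute phase and growth signalling. Of the 7, 2 rose and 2 fell in CAL-27, where 11.6% of all tested genes rose and 15.7% fell. In SCC-15 2 rose and 3 fell, where 13.4% of all tested genes rose and 14.3% fell. PTX3 (chromosome 3, 157436789 to 157443628, plus strand), a pattern-recognition pentraxin, showed the largest fall in CAL-27, at 7.94, 5.97 and 8.92 CPM in shTTK, against 19.6, 21.4 and 18.1 CPM in shControl (-1.38 ± 0.17, edgeR adjusted p = 2.16e-07). In SCC-15 it was near the limit of detection, with 2 counts in shTTK and 17 counts in shControl, a ratio of 0.117 with a 95% counting interval of 0.0131 to 0.492. The groups overlapped, since control library 1 had 0 counts. It was called there (edgeR adjusted p = 0.033), but the call was lost without CAL-27 shTTK library 1, SCC-15 shTTK library 1, SCC-15 shTTK library 2, SCC-15 shControl library 2 or SCC-15 shControl library 3 (-2.87 to -2.19, edgeR adjusted p = 0.0502 to 0.161) and with limma-voom (-1.99, adjusted p = 0.222), and without SCC-15 shTTK library 3 the log2 fold change was -5.52. LCN2 (chromosome 9, 128149071 to 128153455, plus strand), which starves bacteria of iron, measured 324, 342 and 352 CPM in CAL-27 shTTK, against 260.0, 282 and 274 CPM in CAL-27 shControl (0.32 ± 0.039, edgeR adjusted p = 9.21e-10). In SCC-15 it measured 1.98, 2.77 and 2.18 CPM in shTTK, against 5.14, 3.27 and 4.16 CPM in shControl (-0.86 ± 0.16, edgeR adjusted p = 1.83e-05). The groups did not overlap in either line, and the directions were opposite.

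SAA1 (chromosome 11, 18266174 to 18269977, plus strand), an acute-phase serum amyloid protein, measured 0.641, 0.403 and 0.168 CPM in SCC-15 shTTK, against 0.972, 1.55 and 0.645 CPM in SCC-15 shControl (-1.38 ± 0.35, edgeR adjusted p = 0.00139). This call was lost without SCC-15 shControl library 2 (-0.996, edgeR adjusted p = 0.0619). In CAL-27 SAA1 stood far higher, at 102, 101 and 99.8 CPM in shTTK, against 87.3, 94.9 and 93.2 CPM in shControl, and every shTTK library was higher. It was not called (0.14 ± 0.054, edgeR adjusted p = 0.0514), but it was called higher with RLE size factors, limma-voom, both other filters, the replicate block, CAL-27 fitted alone, without both SCC-15 libraries numbered 1, and without CAL-27 shControl library 2, any SCC-15 shTTK library or SCC-15 shControl library 2 or 3 (0.13 to 0.18, adjusted p = 0.00343 to 0.0488). Its neighbour SAA2, 17.5 kb away on chromosome 11, was not called in CAL-27 (0.27 ± 0.12, edgeR adjusted p = 0.0902), though limma-voom (adjusted p = 0.0398), CAL-27 fitted alone (0.0193) and the fit without CAL-27 shTTK library 1 (0.0383) called it higher, and had 0 counts in SCC-15 shTTK and 3 counts in SCC-15 shControl. Counts of the 2 serum amyloid genes are uncertain, because near-identical sequence can divide reads between them. BMP2 (chromosome 20, 6767664 to 6780280, plus strand), a growth factor of the bone morphogenetic family, rose in both lines. It measured 14.8, 13.4 and 14.2 CPM in SCC-15 shTTK, against 8.63, 7.92 and 9.21 CPM in SCC-15 shControl (0.72 ± 0.1, edgeR adjusted p = 2.52e-08). In CAL-27 it measured 25.3, 27.1 and 25.4 CPM in shTTK, against 19.7, 21.5 and 19.5 CPM in shControl (0.36 ± 0.085, edgeR adjusted p = 5.75e-04), again without overlap.

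TNFSF15, a ligand of the tumour necrosis factor family, fell in CAL-27 to 33.4 ± 1.501 CPM in shTTK, against 41.9 ± 2.40 CPM in shControl (-0.33 ± 0.075, edgeR adjusted p = 4.18e-04), and was not called in SCC-15 (0.12 ± 0.21). EFNA1, a membrane-bound ligand of Eph receptors, was not called in CAL-27 (-0.004 ± 0.065) and rose in SCC-15 to 37.97 ± 4.22 CPM in shTTK, against 30.4 ± 0.872 CPM in shControl (0.32 ± 0.095, edgeR adjusted p = 0.0234). The SCC-15 call was lost without SCC-15 shControl library 1, SCC-15 shControl library 2 or SCC-15 shControl library 3 (0.31 to 0.34, edgeR adjusted p = 0.0616 to 0.0703) and with limma-voom (0.31, adjusted p = 0.0556).

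Metabolic and transport genes included SLC2A6 (chromosome 9, 133471095 to 133479137, minus strand), a sugar transporter of intracellular membranes. It measured 88.8, 91.3 and 93.5 CPM in CAL-27 shTTK, against 130.3, 135 and 130.2 CPM in CAL-27 shControl (-0.53 ± 0.049, edgeR adjusted p = 6.61e-15). In SCC-15 the groups overlapped at 28.6, 23.4 and 24.8 CPM in shTTK, against 27.3, 22.5 and 26.0 CPM in shControl (0.02 ± 0.069, edgeR adjusted p = 0.897). GCH1, the first enzyme of tetrahydrobiopterin synthesis, was not called in CAL-27 (-0.10 ± 0.073) or SCC-15 (0.11 ± 0.079). G0S2, an inhibitor of triglyceride breakdown, had 10 counts in CAL-27 shTTK, 14 counts in CAL-27 shControl and 0 counts in SCC-15, too few to test.

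All 3 transcription factors of the set were called in both lines, each in 1 direction. Of all tested genes, 2.87% were called higher in both lines and 4.01% lower in both. CEBPD (chromosome 8, 47736909 to 47739086, minus strand), a factor of the acute phase, measured 72.7, 73.2 and 69.9 CPM in CAL-27 shTTK, against 88.6, 101 and 88.5 CPM in CAL-27 shControl (-0.37 ± 0.052, edgeR adjusted p = 1.98e-08). In SCC-15 it measured 25.5, 23.0 and 24.9 CPM in shTTK, against 37.0, 39.7 and 38.9 CPM in shControl (-0.65 ± 0.065, edgeR adjusted p = 1.38e-13). ETS1 (chromosome 11, 128458761 to 128587558, minus strand), the founding member of the ETS family, also fell in both. It measured 8.93, 8.75 and 7.81 CPM in CAL-27 shTTK, against 15.4, 13.4 and 14.5 CPM in CAL-27 shControl (-0.76 ± 0.11, edgeR adjusted p = 2.08e-08). In SCC-15 it measured 12.8, 13.4 and 13.3 CPM in shTTK, against 18.3, 16.4 and 15.9 CPM in shControl (-0.36 ± 0.099, edgeR adjusted p = 0.00353), a call lost without both libraries numbered 1 (-0.27, adjusted p = 0.109). ELF3, an ETS factor of epithelial differentiation, rose to 254 ± 5.89 CPM in CAL-27 shTTK, against 199 ± 17.4 CPM in CAL-27 shControl (0.35 ± 0.044, edgeR adjusted p = 2.00e-07). In SCC-15 it rose to 318 ± 9.60 CPM in shTTK, against 263 ± 10.5 CPM in shControl (0.27 ± 0.043, edgeR adjusted p = 8.04e-06).

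Set side by side, the lines shared part of the response. Of the 40 tested members 8 fell in both lines (BIRC3, CFLAR, TIFA, SOD2, ICAM1, PTX3, CEBPD and ETS1), while 4.01% of all tested genes did. Both calls held under every alternative for SOD2, ICAM1 and CEBPD. BMP2 and ELF3 rose in both lines, as did 2.87% of all genes. TNFAIP2 and LCN2 rose in CAL-27 and fell in SCC-15 (1.91% of all genes), and BCL3 fell in CAL-27 and rose in SCC-15 (2.90%). A further 19 were called in 1 line, and 8 in neither: TNFAIP3, CYLD, BIRC2, TRAF1, MAP3K8, CD83, SAA2 and GCH1. Over all tested genes 27.3% were called in CAL-27 and 27.7% in SCC-15, genes called in both lines included.

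The difference between the lines was tested as the change in SCC-15 minus that in CAL-27. It was called for 19 members, 11 higher and 8 lower in SCC-15, or 47.5% of the 40, against 25.4% of all genes (13.3% higher and 12.1% lower). The members whose change was more negative in SCC-15 were CD40 (-2.74 ± 0.33, edgeR adjusted p = 1.78e-10), TNFRSF9, SAA1, LCN2, ICAM1 (-0.97 ± 0.08, edgeR adjusted p = 1.07e-16), TNFAIP2 (-0.70 ± 0.046, edgeR adjusted p = 6.21e-22), NFKBIZ and CEBPD. Those whose change was more positive in SCC-15 were led by IL7R (1.04 ± 0.2, edgeR adjusted p = 1.41e-04), NFKBID, BCL3 (0.63 ± 0.084, edgeR adjusted p = 5.89e-09), ZC3H12A (0.60 ± 0.056, edgeR adjusted p = 1.37e-14), IER3 (0.57 ± 0.085, edgeR adjusted p = 5.53e-04) and SLC2A6 (0.55 ± 0.084, edgeR adjusted p = 2.34e-07). Among members called lower in both lines, the difference was called for ICAM1 and CEBPD, which fell more in SCC-15, and for ETS1, which fell more in CAL-27. It was not called for BIRC3 (-0.03 ± 0.18, edgeR adjusted p = 0.956), CFLAR (-0.08 ± 0.092), TIFA (-0.01 ± 0.17), PTX3 (-1.50 ± 1.1) or SOD2 (0.12 ± 0.051, edgeR adjusted p = 0.0887). The SOD2 difference was called without SCC-15 shTTK library 1, SCC-15 shControl library 2 or both SCC-15 libraries numbered 1 (0.15 to 0.16, edgeR adjusted p = 0.0168 to 0.0308). That of EFNA1, not called either (0.32 ± 0.11, edgeR adjusted p = 0.0581), was called with DESeq2, both other filters and the replicate block and without CAL-27 shControl library 1 or 2 or SCC-15 shTTK library 3 (0.23 to 0.39). The ETS1 difference (0.41 ± 0.15, edgeR adjusted p = 0.0309) was lost without CAL-27 shTTK library 3, CAL-27 shControl library 1, SCC-15 shTTK library 2, SCC-15 shTTK library 3, SCC-15 shControl library 2 or SCC-15 shControl library 3 (0.34 to 0.41, edgeR adjusted p = 0.053 to 0.115) and with every gene that had a read (0.41, adjusted p = 0.0646). The NFKBIZ difference was lost without SCC-15 shTTK library 1 or SCC-15 shTTK library 3 (-0.46 and -0.47, edgeR adjusted p = 0.0602 and 0.0541), that of TNIP2 without CAL-27 shTTK library 1, CAL-27 shTTK library 3, CAL-27 shControl library 1, CAL-27 shControl library 2, SCC-15 shTTK library 1, SCC-15 shTTK library 2, SCC-15 shControl library 1 or SCC-15 shControl library 3 (0.22 to 0.26, edgeR adjusted p = 0.0542 to 0.105), that of RIPK2 without CAL-27 shTTK library 2, SCC-15 shTTK library 1 or SCC-15 shControl library 3 (0.22 to 0.26, edgeR adjusted p = 0.0589 to 0.0984) and that of BMP2 without CAL-27 shTTK library 1, CAL-27 shTTK library 3, CAL-27 shControl library 2, SCC-15 shTTK library 1, SCC-15 shTTK library 3, SCC-15 shControl library 1 or SCC-15 shControl library 2 (0.30 to 0.37, edgeR adjusted p = 0.0529 to 0.141). Without both SCC-15 libraries numbered 1, the differences of NFKBIZ, TNIP2, RIPK2, BMP2 and TNFRSF9 were lost (edgeR adjusted p = 0.067, 0.113, 0.0831, 0.1004 and 0.0709). The TNFRSF9 difference was then -1.65. With limma-voom the NFKBIZ difference was lost (-0.46, limma-voom adjusted p = 0.0573). With every gene that had a read, those of TNIP2 and BMP2 were lost (0.26 and 0.36, edgeR adjusted p = 0.0506 and 0.0769). TTK itself fell more in SCC-15 (-0.67 ± 0.093, edgeR adjusted p = 2.37e-08), and control levels of most members were lower there. The part of either in the differences was not tested.

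**Figure D3:**
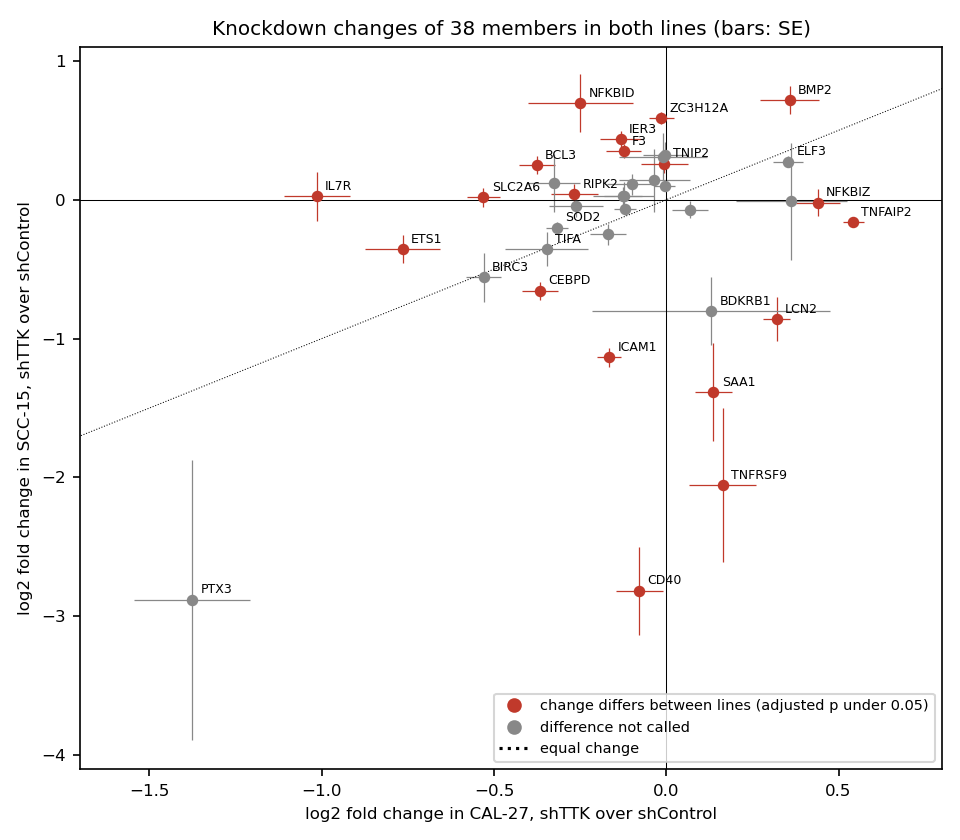
Log2 fold change in SCC-15 (vertical) against that in CAL-27 (horizontal), shTTK over shControl, for 38 tested members, with 1 SE; TLR2 and SAA2 are left out because SCC-15 had 3 counts or fewer in each group. Red points mark members whose change differed between the lines, such as CD40 at -2.74 and IL7R at 1.04 for the change in SCC-15 minus that in CAL-27, and the dotted line marks equal change.

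In the control cells most target genes stood far lower in SCC-15 than in CAL-27. In SCC-15 shControl against CAL-27 shControl, 3 of the 40 tested members were higher, 34 were lower and 3 were not called, or 92.5% called, against 76.0% of all genes (37.8% higher and 38.2% lower). The median log2 difference was -2.04, and the same with TLR2 at its bound, against -0.01 over all genes. It was -1.997 without TLR2 and SAA2. Of the lower members 29 differed by at least 1, 21 by at least 2 and 12 by at least 4 on the log2 scale. The summed level of the 42 genes was 2190 to 2214 CPM in SCC-15 shControl, against 8321 to 9100 CPM in CAL-27 shControl. With knockdown it was 2521 to 2533 CPM in SCC-15 shTTK and 8300 to 8570 CPM in CAL-27 shTTK. Line cannot be told apart from any difference in handling between the lines.

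TNFAIP3 averaged 13.0 ± 0.966 CPM in SCC-15 shControl and 874 ± 131 CPM in CAL-27 shControl (SD, n = 3 each), a log2 difference of -6.07 ± 0.15 (edgeR adjusted p = 3.25e-10). Innate defence genes were among the members with the largest differences. SAA1 averaged 1.05 ± 0.458 CPM in SCC-15 shControl and 91.8 ± 4.01 CPM in CAL-27 shControl (-6.43 ± 0.11), and LCN2 4.19 ± 0.936 CPM and 272 ± 11.1 CPM in the same groups (-6.02 ± 0.068). PTX3 (-5.88 ± 0.28), TNFRSF9 (-5.42 ± 0.18) and BIRC3 (-5.25 ± 0.085) followed. TLR2 had 0 counts in SCC-15 shControl and 613 counts in CAL-27 shControl, which is at least 205-fold lower with the 0 set at a floor of 3 counts over the group. SAA2 had 3 and 745 counts in the same groups, a ratio of 0.00402 with a 95% counting interval of 0.000827 to 0.0118. All 3 counts were in SCC-15 shControl library 1, and the other 2 libraries had 0. The fitted log2 difference was -7.79, and -10.94 without that library, a fitted value against 0 counts that is no bound. Such intervals and floors cover counting error only. The members higher in SCC-15 were BDKRB1, at 3.60, 3.67 and 3.93 CPM in SCC-15 shControl, against 1.09, 0.877 and 0.743 CPM in CAL-27 shControl (2.04 ± 0.28, edgeR adjusted p = 1.10e-09), ELF3 (0.40 ± 0.044, edgeR adjusted p = 1.89e-09) and ETS1 (0.22 ± 0.098, edgeR adjusted p = 0.0359). The ETS1 call was lost without CAL-27 shControl library 2, CAL-27 shControl library 3 or SCC-15 shControl library 1 (0.16 to 0.22, edgeR adjusted p = 0.0667 to 0.191). TNIP2, TIFA and IL15RA were not called. TIFA was called lower with RLE size factors, limma-voom and without CAL-27 shControl library 2, SCC-15 shControl library 1 or both SCC-15 libraries numbered 1 (-0.30 to -0.24, adjusted p = 0.0377 to 0.0499), and IL15RA without CAL-27 shControl library 2 (-0.19, edgeR adjusted p = 0.0458).

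**Figure D4:**
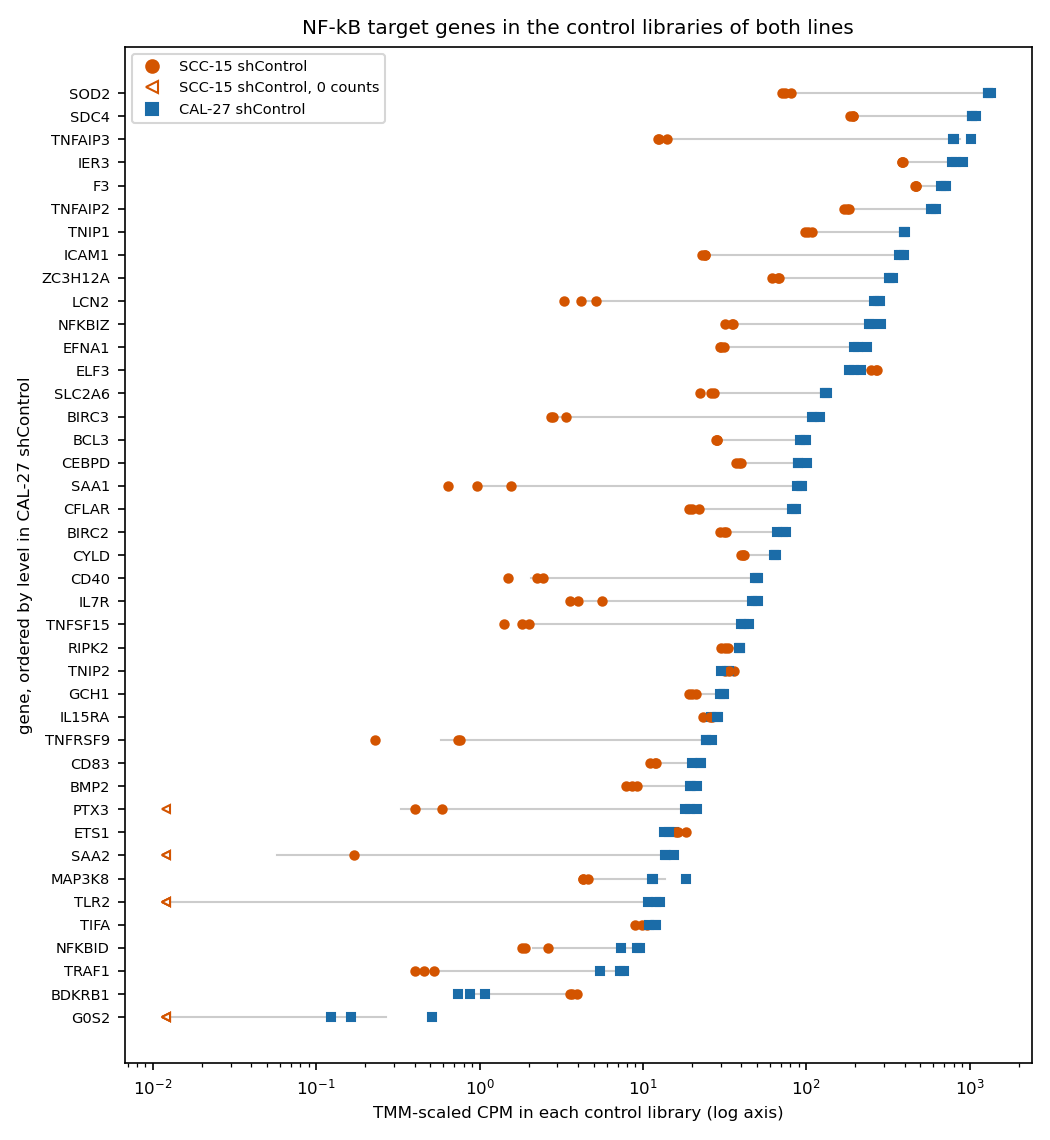
Level of each member with counts in the control libraries, on a log axis of TMM-scaled CPM, with SCC-15 shControl as orange circles and CAL-27 shControl as blue squares; open triangles at the left edge are SCC-15 libraries with 0 counts, and grey lines join the group means. SCC-15 lies to the left for the 34 members called lower, TNFAIP3 at 12.4 to 14.1 CPM against 788 to 1025 CPM, while BDKRB1, ELF3 and ETS1 lie to the right.

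Levels can be compared between members only per length, here CPM per kb of the union of all annotated exons. The ranks depend on that length, which was 16.49 kb for SOD2 and 22.53 kb for CFLAR. SOD2, at 1316 CPM in CAL-27 shControl, held rank 11 there with 79.8 ± 1.71 CPM per kb. A second GENCODE record named SOD2 has an exon union of only 2558 bases and would place it higher. IER3 led in every group, with 565 ± 26.9 CPM per kb in CAL-27 shTTK, 619 ± 47.3 in CAL-27 shControl, 389 ± 24.7 in SCC-15 shTTK and 287 ± 2.31 in SCC-15 shControl (SD, n = 3 each). SDC4 and F3 filled the next places in both lines, SDC4 ahead of F3 in CAL-27 and F3 ahead of SDC4 in SCC-15. In CAL-27 shControl F3 had 242 ± 7.76 CPM per kb, followed by TNFAIP3 (173 ± 26.0) and LCN2 (170.2 ± 6.95), which did not differ beyond their spread, and TNFAIP2 (119 ± 3.65) and SAA1 (115 ± 5.04), which did not either. In SCC-15 shControl the fourth place went to ELF3 (36.5 ± 1.46) and the fifth to TNFAIP2 (35.2 ± 1.28), again within their spread, while TNFAIP3 held rank 23 (2.57 ± 0.192) and LCN2 rank 22 (2.62 ± 0.586).

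The genes that carry the signal to these targets were counted from lists of their own. Of 34 NF-kB subunits, inhibitors and kinases, 1 rose and 9 fell in CAL-27 and 4 rose and 9 fell in SCC-15, with median log2 fold changes of -0.05 in CAL-27 and -0.04 in SCC-15. The called share was 29.4% in CAL-27, near the 27.3% of all genes, and 38.2% in SCC-15, against 27.7% of all genes. In CAL-27 the receptor-proximal kinase IRAK1 fell to 329.5 ± 16.3 CPM in shTTK, against 395 ± 11.2 CPM in shControl (-0.26 ± 0.033, edgeR adjusted p = 5.81e-10). TAB3, a subunit of the TAK1 kinase complex, fell as well (-0.32 ± 0.045), and so did NFKBIA, the main cytoplasmic inhibitor and itself a target of the pathway, to 395 ± 15.1 CPM in shTTK, against 524 ± 37.4 CPM in shControl (-0.41 ± 0.047, edgeR adjusted p = 1.49e-06). In SCC-15 NFKBIA fell as well, to 42.4 ± 3.94 CPM in shTTK, against 59.4 ± 0.321 CPM in shControl (-0.49 ± 0.066, edgeR adjusted p = 1.08e-05), TAB3 fell (-0.17 ± 0.05, edgeR adjusted p = 0.00589) and IRAK1 rose (0.09 ± 0.032, edgeR adjusted p = 0.0218). The genes with the lowest adjusted p in SCC-15 were others. NFKB1, the precursor of a DNA-binding subunit, fell to 65.6 ± 2.65 CPM in shTTK, against 85.8 ± 0.560 CPM in shControl (-0.39 ± 0.047, edgeR adjusted p = 1.47e-10). OTULIN, which removes linear ubiquitin chains, fell too (-0.32 ± 0.046), while PDLIM2, a nuclear ubiquitin ligase of the RELA subunit, rose (0.65 ± 0.11). None of these 3 was called in CAL-27 (NFKB1 -0.11 ± 0.046, OTULIN 0.07 ± 0.054, PDLIM2 -0.18 ± 0.098).

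Of 19 receptors that activate the pathway, 2 rose and 5 fell in each line, a called share of 36.8% in each, against 27.3% of all genes in CAL-27 and 27.7% in SCC-15. In CAL-27 the TWEAK receptor TNFRSF12A fell (-0.42 ± 0.043, edgeR adjusted p = 4.57e-11), the lipopolysaccharide receptor TLR4 fell (-0.87 ± 0.19, edgeR adjusted p = 2.20e-04) and EGFR rose (0.24 ± 0.029, edgeR adjusted p = 8.38e-11). In SCC-15 EGFR fell to 340.5 ± 7.84 CPM in shTTK, against 489.9 ± 8.98 CPM in shControl (-0.52 ± 0.03, edgeR adjusted p = 2.35e-25), beside TLR6 (-1.26 ± 0.14) and IL1RAP, the shared chain of interleukin 1 receptors (-0.61 ± 0.069). TNFRSF12A (-0.02 ± 0.041) and TLR4 were not called in SCC-15, nor TLR6 (0.20 ± 0.13) and IL1RAP (0.02 ± 0.064) in CAL-27. Of 27 tested cytokine and chemokine genes that NF-kB induces, 4 rose and 15 fell in CAL-27, and 3 rose and 5 fell in SCC-15, with median log2 fold changes of -0.32 in CAL-27 and -0.12 in SCC-15. The called share was 70.4% in CAL-27, against 27.3% of all genes, and 29.6% in SCC-15, near the 27.7% of all genes. Those with the lowest adjusted p were CSF2 (-2.46 ± 0.1), IL6 (-1.68 ± 0.075) and TNFSF10 (0.85 ± 0.07) in CAL-27, and IL1A (-0.44 ± 0.044), IL1B (-1.28 ± 0.068) and TNFSF10 (-0.32 ± 0.053) in SCC-15. IL1A (-0.38 ± 0.034, edgeR adjusted p = 8.36e-14) and IL1B (-0.20 ± 0.045, edgeR adjusted p = 0.00181) fell in CAL-27 too, while CSF2 (0.05 ± 0.31) and IL6 (-0.05 ± 0.18) were not called in SCC-15. Between the control lines this list was lower in SCC-15 for 23 of 27 genes and higher for 3. Of all tested genes 38.2% were lower and 37.8% higher in that comparison.

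Members with a kappaB match in the 250 bases before the RefSeq start moved in both directions. In CAL-27, of the 11 with a match, NFKBIZ, LCN2 and ELF3 rose, BIRC3, CFLAR and PTX3 fell, 4 were not called and VCAM1 was not tested. In SCC-15, SDC4 and ELF3 rose, BIRC3, CFLAR, TNFRSF9, LCN2 and PTX3 fell and 3 were not called. Over all tested genes 27.3% were called in CAL-27 and 27.7% in SCC-15. TNFAIP3, with 2 matches, was not called in either line, and LCN2 and BIRC3 were called in both. No match says only that these letters are not in this window.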

How the data were processed

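Poly(A) RNA of 12 libraries was sequenced as stranded paired ends of 150 bases, per the labels' protocols. The authors deposited raw counts per gene symbol, with featureCounts 2.0.1, the aligner STAR 2.7.7a, the trimmer Trim Galore 0.6.6 and build hg38 named in the submitters' processing notes. The strand setting and annotation release were not given in the sources used here, and overlapping genes are uncertain. Counts were filtered (filterByExpr), TMM-scaled and fitted over 4 groups in edgeR 4.0.16 (R 4.3.3) with the robust quasi-likelihood test. P-values were adjusted by Benjamini-Hochberg over 16946 genes, with a threshold of 0.05. The residual degrees of freedom were 8. The method was run on counts simulated from its own fitted spread, which cannot show whether its assumptions hold for these libraries. Values in every library are given for members called with a change of at least 0.5 (log2) and at least 1 CPM. Of 2 lines named SOD2, the one with more counts was used. The members and lists were chosen with earlier results of these data known. DESeq2 1.42.0, limma-voom (limma 3.58.1), other filters and scaling, the replicate block and left-out libraries were the alternatives. Levels per kb used GENCODE 29 exons. Promoters came from RefSeq (GRCh38.p14).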

Additional observations from a re-analysis of the deposited data

Results flagged for a closer look

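The change with TTK knockdown differed between the lines for 19 of the 40 tested members, by edgeR's interaction test (adjusted p under 0.05 over all genes). All values are log2 changes in SCC-15 minus those in CAL-27. The change was more negative in SCC-15 for CD40 (-2.74), TNFRSF9 (-2.22), SAA1 (-1.52), LCN2 (-1.18), ICAM1 (-0.97), TNFAIP2 (-0.70), NFKBIZ (-0.46) and CEBPD (-0.29). It was more positive in SCC-15 for TNIP2 (0.27), RIPK2 (0.31), BMP2 (0.36), ETS1 (0.41), F3 (0.48), SLC2A6 (0.55), IER3 (0.57), ZC3H12A (0.60), BCL3 (0.63), NFKBID (0.94) and IL7R (1.04). Of these, TNFAIP2, LCN2 and BCL3 were called in opposite directions in the lines. TNFRSF9 rests on 7 counts in SCC-15 shTTK and 30 counts in SCC-15 shControl, and SAA1 on 21 and 55 counts in the same groups.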

How the results depend on the processing

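No call of a member changed direction under any alternative. At least 1 alternative ended 4 of the 21 calls in CAL-27, 12 of the 24 in SCC-15, 6 of the 19 differences between the lines and 1 of the 37 between the controls. Some alternatives called members that were not called otherwise, among them SAA1 and F3 in CAL-27 and the difference of EFNA1. In CAL-27, limma-voom and the fit of each line alone both gave 8 members higher, against 5. Leaving out 1 library at a time gave 5 to 6 higher and 13 to 17 lower in CAL-27, 8 to 10 higher and 10 to 14 lower in SCC-15, 8 to 12 higher and 7 to 9 lower for the difference, and 2 to 3 higher and 34 to 36 lower between the controls. TTK stayed between -0.59 and -0.49 in CAL-27 and between -1.32 and -1.13 in SCC-15. Correlations between same-numbered libraries were -0.02 to 0.034 over all genes. They showed no pairing by number, but with 3 libraries per group they cannot exclude one. With the replicate number as a block, 6 members were higher and 16 lower in CAL-27, 10 higher and 14 lower in SCC-15, 12 higher and 8 lower for the difference, and 3 higher and 34 lower between the controls. TTK was then -0.54 in CAL-27 and -1.22 in SCC-15. Without both SCC-15 libraries numbered 1, 10 and 6 differences were called higher and lower. The differences of NFKBIZ, TNIP2, RIPK2, TNFRSF9, BMP2 and ETS1 were the 6 lost under some alternative. Depth limits members at low levels in SCC-15, among them TNFRSF9, PTX3, SAA1 and CD40, each under 3 CPM.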
